A study of Drosophila melanogaster with 10 samples.

Results

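The mitochondrial ribosomal protein genes of the fly were followed in whole embryos that differed in strain, in Dmp53 genotype and in exposure to ionizing radiation. They were taken as every probe set that the platform annotation pairs with 1 gene symbol starting with mRpL or mRpS. This gave 66 of the 13966 probe sets that measure genes, and they stand for 64 of 10845 gene symbols. By name 45 probe sets belong to the large subunit (43 genes) and 21 to the small subunit (21 genes). Only mRpL11 and mRpL12 had 2 probe sets each. No expression value was used to choose them.

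Mitochondria carry a ribosome of their own, which makes the few proteins encoded in mitochondrial DNA, nearly all of them subunits of the respiratory chain. Its RNA comes from the mitochondrial genome, whereas its proteins are encoded in the nucleus, made in the cytosol and imported. Some of these proteins descend from those of bacterial ribosomes and keep their numbers, and others have no bacterial counterpart. In the early embryo much of the mRNA is laid down by the mother before the zygotic genome becomes active.

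Embryos of Drosophila melanogaster were gathered for 2.5 h from egg laying, kept at 25 °C for a further 2.5 h, given 40 Gy or a mock treatment, and left for 1.5 h before harvest. Wild-type (WT) embryos came from the strains yw (1 mock and 1 irradiated array) and w1118 (2 of each), and mutant embryos from Dmp53NS (2 of each), a strain named for its mutation of Dmp53, the fly p53 gene. Each array read the total RNA of about 1 g of pooled embryos. The series calls the arrays biological replicates in paired sets of a control and an irradiated sample. The labels do not describe the allele or its genetic background, so that genotype and strain background cannot be told apart.

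The p53 probe set read 233.3 to 506.6 on the 6 WT arrays and 103.4 to 212.5 on the 4 Dmp53NS arrays. Signal is the deposited intensity in arbitrary units, with each array scaled to a common mean trimmed by 2% at each end. Whether the probe set lies inside the mutated stretch is not known here. Run records place the yw arrays on hybridization day 1, and 1 w1118 set and 1 Dmp53NS set on each of days 2 and 3, each day with its own chip batch. The control transcript eIF-4a is read at both of its ends, and its 3′ to 5′ ratio rises as RNA degrades or is copied incompletely. That ratio was 12.2 on the irradiated array of w1118 set 2 and 5.92 on the mock array of Dmp53NS set 2. It lay between 1.56 and 3.13 on the other 8 arrays. Among genes that mark embryonic age, the summed signal of maternal transcripts was 4237 to 9510 on Dmp53NS arrays, 1676 to 3009 on w1118 arrays and 1530 to 1531 on yw arrays. The summed signal of 10 zygotic patterning genes was 2833 to 5262, 5112 to 7580 and 6468 to 7499 in the same order. The maternal transcripts differed among themselves. On every Dmp53NS array bcd, osk and smg were above every w1118 array, gcl and the dim png were below, and stau overlapped. The signal of smg was 1240.3 to 5843 in Dmp53NS and 143.6 to 930.8 in w1118, and that of gcl 228.3 to 312.9 and 393.6 to 518.1.

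All 66 probe sets passed the filter on dim signals, a mean above 53.4, as did 8379 of all 13966. Their mean signal over the arrays ranged from 99.8 to 2740 with a median of 538, against a median of 235 for all probe sets kept. The SD of their log2 signal over the 10 arrays had a median of 0.41, against 0.54. For 46 of the 66 the highest array read under 3 times the lowest. The 2 with an SD above 1 were probe set 142024_at of mRpL11 and probe set 141924_at of mRpL12, which are taken up with the strains. The second of these averaged 40.5 on the arrays other than yw, and so passed the filter only through its yw values.

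The widest shared movement followed the sets rather than the treatment. The median signal of the members was 419 to 510 on the 4 arrays of day 2 and 581 to 626 on the 4 arrays of day 3, so that these ranges did not overlap, and 454 and 525 on the yw arrays of day 1. Day 3 minus day 2, the median log2 difference of the members was 0.38 for w1118 mock, 0.45 for w1118 irradiated, 0.77 for Dmp53NS mock and 0.29 for Dmp53NS irradiated embryos. Over all probe sets kept, the same medians were -0.00, 0.01, 0.09 and -0.13. Averaged over the 4 pairs, 64 of the 66 were higher on day 3, with a median of 0.51.

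**Figure D1:**
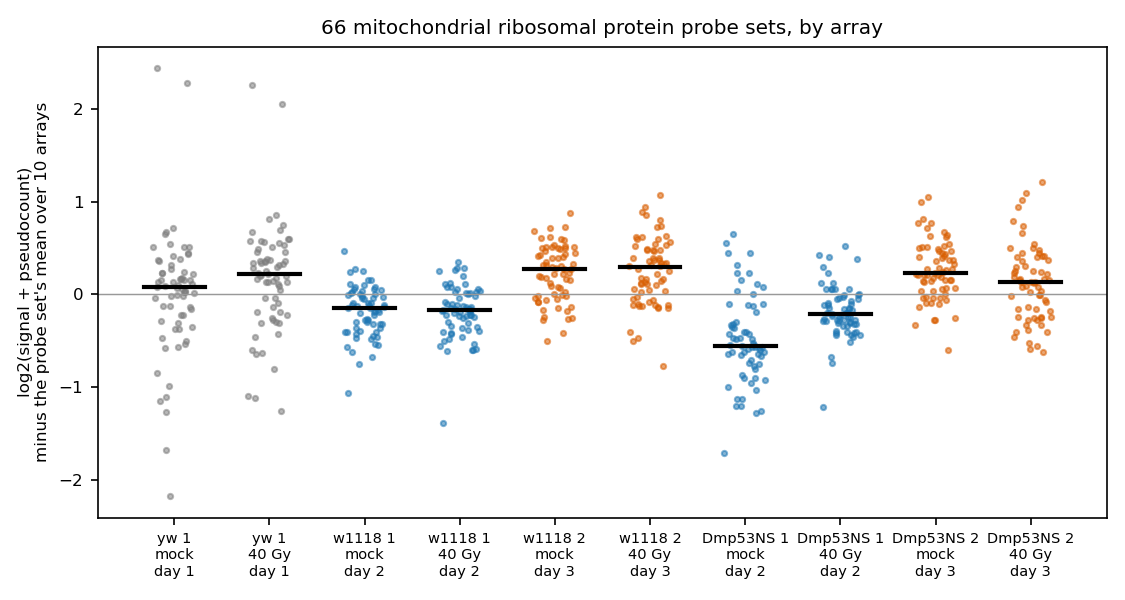
Each point is 1 of the 66 probe sets on 1 array, as log2(signal + pseudocount) minus that probe set's mean over the 10 arrays; black lines are medians, and grey, blue and orange mark hybridization days 1, 2 and 3. The medians of the 4 blue day 2 arrays lie below 0 and those of the 4 orange day 3 arrays above 0, with and without irradiation.

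The 2 days differed for many of these genes one by one. In limma, 25 of the 66 passed an adjusted p of 0.05 as higher on day 3 (7.34% of all probe sets kept did so) and 0 as lower (13.8% of all), with 0 lower at an unadjusted p under 0.05 as well. For 24 of the 66, all 4 day 3 arrays lay above all 4 day 2 arrays (5.54% of all), and for 0 all 4 lay below (11% of all). The 25 and the 24 both include the dim probe set 141924_at of mRpL12, kept only through yw values that are not in this test. mRpS16, a small-subunit protein with a bacterial counterpart, read 1181.7, 1012.2, 958.1 and 1151.3 on day 2 and 1844.9, 2212.8, 2106.6 and 1781.4 on day 3. These ranges were far apart, and the log2 difference was 0.88 (SE 0.17, adjusted p = 0.00105). mRpL52, a large-subunit protein with no bacterial counterpart, read 325.1, 387.3, 324.4 and 342.2 on day 2 and 700.1, 770.2, 604.2 and 613.0 on day 3. Here too every day 3 array was the higher, by 0.93 (SE 0.19, adjusted p = 0.00138).

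Both subunits took part. The median of the 4 pairs was 0.52 for the large subunit, with 44 of 45 higher, and 0.45 for the small subunit, with 20 of 21 higher. It was 0.44 for the 38 members that carry a bacterial number and 0.56 for the 28 that do not. Subunits of the respiratory chain and ATP synthase had a median of 0.43, with 21 of 55 past the threshold as higher and 0 as lower. Proteins of the cytosolic ribosome had a median of -0.21, with 2 of 33 higher and 6 lower. RNA quality moved with the day as a whole. The 3′ to 5′ ratio of eIF-4a was 1.95 to 2.14 on day 2 and 2.92 to 12.2 on day 3, and that of actin 1.30 to 1.49 and 2.00 to 4.88, so that neither overlapped, whereas that of GAPDH did. Without the 2 arrays of highest ratio, both of day 3, the members' median was 0.35 and 5 passed as higher (3.53% of all). Within w1118 alone 2 members passed (1.13% of all) and within Dmp53NS alone 1 (0.346% of all), with medians of 0.45 and 0.54. Markers of embryonic age moved with the day too, though not alike in every pair. The summed signal of the zygotic patterning genes was lower on day 3 in each of the 4 pairs. On average 8 of the 10 were lower, with a median of -0.35. Their medians by pair were -0.48 and -0.21 for w1118 mock and irradiated embryos, and 0.11 (5 of 10 higher) and -0.78 for Dmp53NS. Of the 5 maternal transcripts kept, 1 was higher on average, with a median of -0.02. Their medians by pair were -0.86, -0.09, -0.80 and -0.21 in the same order. The part of RNA quality and of embryonic age in the members' difference was not tested. Hybridization day, chip batch and embryo collection cannot be told apart, and neither can more cells of a type and more RNA per cell in such whole-embryo samples. This difference was noticed and tested in the same data, and its test treats the arrays of a set as independent.

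Irradiation of WT embryos addressed which transcripts respond to 40 Gy. None of the mitochondrial ribosomal protein genes passed. In limma, with each set as a block, 0 of the 66 had an adjusted p under 0.05 (0.239% of all did) and 4 had an unadjusted p under 0.05 (8.09% of all). The median log2 change of the 66 was 0.03, with quartiles of -0.07 and 0.22, against -0.01 for all probe sets kept. By set it was 0.12 in yw, and 0.00 and 0.02 in the w1118 sets. The large subunit had a median of 0.04 and the small subunit of 0.03. After irradiation 13 members were higher in all 3 sets (15.3% of all) and 7 were lower in all 3 (16.2% of all).

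The largest positive difference was that of mRpS18B, one of 3 genes of the S18 family, which are named for the small subunit. Its signal was 40.7 in mock and 228.9 in irradiated yw embryos, 175.8 and 239.0 in w1118 set 1, and 257.7 and 437.6 in w1118 set 2. Every irradiated array thus exceeded its own control, but the yw control was far below all others. The log2 difference was 1.09 (SE 0.32, adjusted p = 0.269), and 0.57 without the yw set.

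For mRpL33, a small protein of the large subunit, the signal went from 149.4 to 324.1 in yw, from 467.4 to 475.1 in w1118 set 1 and from 357.4 to 959.7 in w1118 set 2. Irradiated arrays were higher in each set, with hardly any gap in w1118 set 1. The log2 difference was 0.82 (SE 0.26, adjusted p = 0.331), and 0.53 without w1118 set 2, whose irradiated array had the 3′ to 5′ ratio of 12.2. mRpL32 (0.60) and mRpL41 (0.51) followed.

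The lowest value was that of mRpL3, a protein near the catalytic centre of the large subunit. It read 208.5 in mock and 58.8 in irradiated yw embryos, 203.0 and 171.6 in w1118 set 1, and 237.1 and 179.9 in w1118 set 2. Every irradiated array was below its control, most of all in yw. The log2 difference was -0.73 (SE 0.35, adjusted p = 0.611). The next lowest were probe set 141924_at of mRpL12 (-0.47), mRpL48 (-0.36) and probe set 142024_at of mRpL11 (-0.31).

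**Figure D2:**
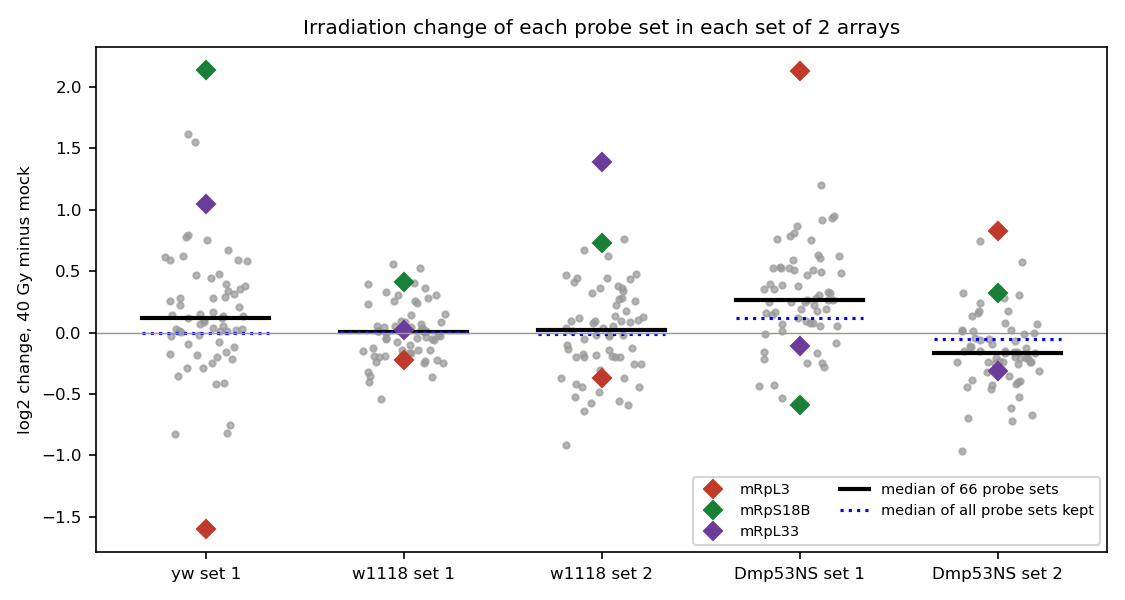
Each point is 1 of the 66 probe sets in 1 set of a mock and an irradiated array, as the log2 change from mock to 40 Gy; the black line is their median and the dotted blue line the median of all probe sets kept. The members' medians run from -0.16 (Dmp53NS set 2) to 0.27 (Dmp53NS set 1), and mRpL3 lies below 0 in the 3 WT sets and above 0 in both Dmp53NS sets.

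Irradiation of Dmp53NS embryos addressed the response that remains in the mutant. In limma 0 of the 66 passed (0% of all), and 2 reached an unadjusted p under 0.05 (1.6% of all). The median log2 change was 0.07 against 0.02 for all probe sets. The sets went opposite ways, with a median of 0.27 in set 1 (53 of 66 higher) and -0.16 in set 2 (48 of 66 lower), where all probe sets had 0.12 and -0.05. In both sets 11 members were higher (19% of all) and 6 were lower (14.2% of all).

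mRpL3 again stood at one end. Its signal was 33.4 in mock and 195.6 in irradiated embryos of Dmp53NS set 1, and 109.9 and 206.8 in set 2. Both irradiated arrays were above both controls, and they lay within the range of the WT controls and irradiated w1118 arrays. The log2 difference was 1.48 (SE 0.43, adjusted p = 1.00). mRpS34, a small-subunit protein with no bacterial counterpart, went from 115.3 to 284.6 and from 286.0 to 357.0, a difference of 0.76. The ends of those ranges overlapped narrowly. mRpL10 (0.36) and mRpL22 (0.35) came next, and the lowest were mRpL12 by 141924_at (-0.59), mRpL4 (-0.34), mRpL43 (-0.25) and mRpS11 (-0.23).

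The difference between the irradiation effects of WT and Dmp53NS embryos was tested directly. In limma 0 of the 66 passed (0.0119% of all did, a single one) and 3 reached an unadjusted p under 0.05 (3.35% of all). The median was -0.06 against -0.05 for all probe sets kept. mRpL3 had the largest difference, -2.21 on the log2 scale (SE 0.56, adjusted p = 0.432). Leaving out the yw set gave -1.78, leaving out Dmp53NS set 1 gave -1.56 and leaving out Dmp53NS set 2 gave -2.86. Leaving out the 2 arrays of high 3′ to 5′ ratio gave -3.05. mRpL3 was lower in all 3 WT sets and higher in both Dmp53NS sets, as was mRpL22 (2 of 66, against 3.25% of all probe sets kept). mRpL33 and mRpL24 had the opposite pattern (2 of 66, against 2.4% of all). On the positive side were mRpS18B (1.23), mRpL33 (1.03) and mRpL32 (0.62).

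**Figure D3:**
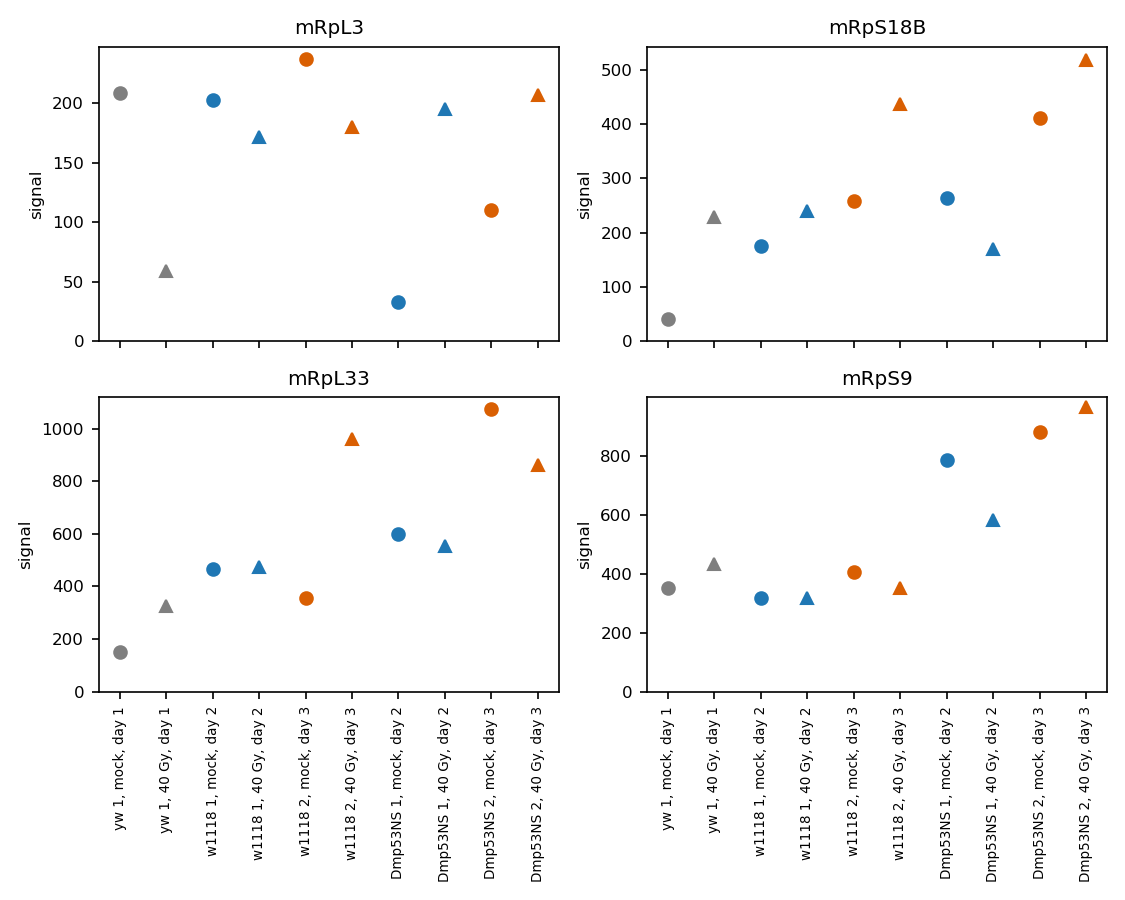
Signal (linear axis from 0) of mRpL3, mRpS18B, mRpL33 and mRpS9 on each array; circles are mock, triangles 40 Gy, and grey, blue and orange are hybridization days 1, 2 and 3. mRpL3 is lowest in the Dmp53NS set 1 mock array (33.4) and the irradiated yw array (58.8), and mRpS9 is at 582.7 or more on the 4 Dmp53NS arrays and at 432.7 or less on the other 6.

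Besides mRpL3, some members were followed whatever their values for roles known from bacterial and mammalian ribosomes, and their log2 irradiation differences are given for WT and then Dmp53NS embryos. In the stalk that recruits translation factors, mRpL10 had 0.07 in WT and 0.36 in Dmp53NS embryos, and mRpL12, by its brighter probe set 142454_at, 0.02 and 0.19. At the stalk base mRpL11, by its brighter probe set 149898_at, had 0.10 and -0.09. mRpL1 of the mobile L1 stalk had 0.23 and -0.07. Of the core around the catalytic centre and exit tunnel, mRpL2 had 0.02 and 0.16, mRpL4 0.03 and -0.34, and mRpL16 -0.12 and 0.01. In the head and platform of the small subunit, mRpS7 had 0.03 and -0.04, mRpS9 0.03 and -0.15, and mRpS11 0.35 and -0.23. None of these passed, with adjusted p-values of 0.709 or more in WT embryos. mRpS29, whose mammalian counterpart DAP3 is a GTP-binding protein linked to cell death, had -0.02 (SE 0.22) and 0.10 (SE 0.27). mRpS30, whose mammalian counterpart is also named for programmed cell death and now placed in the large subunit, had -0.07 (SE 0.24) and 0.13 (SE 0.30).

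Dmp53NS embryos were then compared with w1118, which was run on the same days. The fit holds 1 irradiation term for both WT strains, so that the yw arrays have a part in its values. Without irradiation, 0 of the 66 passed in limma (1.67% of all did) and 11 had an unadjusted p under 0.05 (17.4% of all). After irradiation 0 passed (1.1% of all) and 2 had an unadjusted p under 0.05 (16.5% of all). The median log2 difference was -0.09 in mock and -0.13 in irradiated embryos, against -0.14 and -0.07 for all probe sets kept. By day, the mock median was -0.36 on day 2 and -0.01 on day 3, and the irradiated one -0.03 and -0.15. All 10 zygotic patterning genes had lower fitted values in Dmp53NS, with medians of -0.53 and -0.57. By day, the mock median of these genes was -0.64 on day 2 and -0.27 on day 3, where 3 of 10 were higher. The irradiated one was -0.41 on day 2, where 1 of 10 was higher, and -0.96 on day 3. In limma 0 of the 10 passed, and 1 in mock and 2 in irradiated embryos had an unadjusted p under 0.05. Of the 5 maternal transcripts kept, 4 had higher values, and bcd, a maternal determinant of the anterior, passed at 3.05 (adjusted p = 0.0218) and 2.74 (adjusted p = 0.0212). The part of embryonic age in the members' differences was not tested.

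In both the mock and the irradiated pair of each day, 11 members were higher in Dmp53NS (20.6% of all) and 22 were lower (27.5% of all), which together is near the share among all probe sets kept. mRpS9, which lies in the head of the small subunit near the decoding site, read 316.5 and 407.0 in mock and 318.8 and 353.2 in irradiated w1118 embryos. In Dmp53NS it read 788.1 and 880.9, and 582.7 and 967.2. Every mutant array was above every w1118 array, and also above the yw arrays, at 352.5 and 432.7. The log2 difference was 1.25 in mock (SE 0.31, adjusted p = 0.0740) and 1.07 in irradiated embryos (SE 0.31, adjusted p = 0.122). With the replicate number, which marks the day, as a block and w1118 and Dmp53NS arrays alone, mRpS9 passed in both (1.18, adjusted p = 0.00747; 1.13, adjusted p = 0.0114).

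mRpL1 read 309.8 and 441.3 in mock and 411.2 and 451.8 in irradiated w1118 embryos, and 643.0 and 808.0, and 575.0 and 817.1, in Dmp53NS. Its groups did not overlap either, with differences of 0.94 (adjusted p = 0.139) and 0.64 (adjusted p = 0.311). In all, 4 members had every Dmp53NS array above every w1118 array (10.1% of all probe sets kept), the other two being mRpL4 and mRpS7. On the opposite side were 8 members (11.9% of all): mRpL2, mRpL17, mRpL19, mRpL22, mRpL38, mRpS2, mRpS18C and mRpS31.

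mRpL17, which sits by the exit tunnel in bacterial ribosomes, read 629.7 and 971.8 in mock and 755.8 and 1220.4 in irradiated w1118 embryos. In Dmp53NS it read 265.0 and 588.7, and 468.1 and 496.8. All 4 mutant arrays were the lower, by -0.93 (adjusted p = 0.245) and -1.003 (adjusted p = 0.215) on the log2 scale. mRpL38, a large-subunit protein with no bacterial counterpart, had -0.996 in mock and -0.46 in irradiated embryos, and mRpL22, which lines the exit tunnel, -0.97 and -0.41. mRpL3 was low in both mutant controls, by -2.18 on day 2 and -1.02 on day 3, whereas the irradiated arrays of the strains differed by 0.18 and 0.19. The fitted values, -1.82 in mock (SE 0.49, adjusted p = 0.100) and 0.40 in irradiated embryos, lie farther apart because the drop in irradiated yw embryos enters the shared WT irradiation term.

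**Figure D4:**
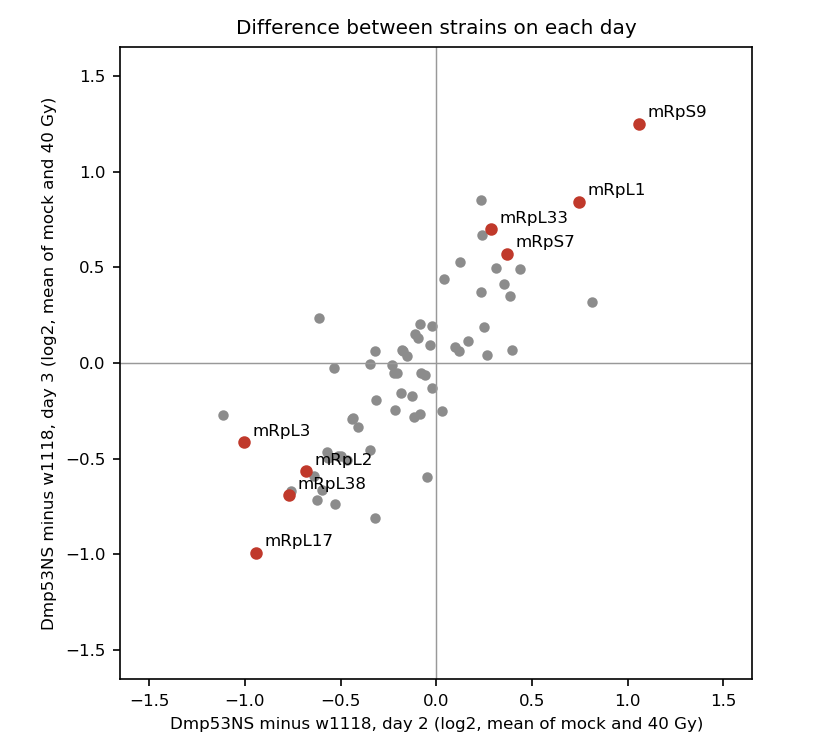
Each point is 1 of the 66 probe sets; the x axis is its log2 difference Dmp53NS minus w1118 on hybridization day 2 and the y axis that on day 3, each the mean of the mock and irradiated pairs. mRpS9 and mRpL1 lie at the upper right and mRpL17 at the lower left; the labelled points were picked from these values.

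The fit with that block leaves out yw and the random effect of set. In it 6 members passed in mock embryos (14.5% of all probe sets kept did so): mRpS9 (1.18), mRpL33 (0.95) and mRpL1 (0.94) as higher, and mRpL3 (-1.60), mRpL38 (-0.98) and mRpL17 (-0.96) as lower. In irradiated embryos 2 passed, mRpS9 and mRpL17 (-0.97), against 12.5% of all. On the same 8 arrays without the block, an alternative added after seeing the data, 0 members passed in limma in either (0.406% and 0.346% of all), with 4 and 1 at an unadjusted p under 0.05. Neither fit takes account of arrays sharing a set.

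yw and w1118, the 2 WT strains, gave the most calls of the 6 comparisons fitted over all probe sets. The yw set also had a hybridization day, chip batch and fluidics protocol of its own, and these cannot be told apart from the strain. In limma 2 of the 66 passed as higher in yw (3.07% of all) and 0 as lower, of 489 probe sets in either direction (5.84% of all). At an unadjusted p under 0.05 there were 7 members (26.2% of all), the other five being mRpL55 and mRpS18C as higher and mRpL14, mRpL33 and mRpS18B as lower. The median log2 difference was 0.05 against 0.01 for all. Both yw arrays were above all 4 w1118 arrays for 13 members (23.7% of all) and below them for 9 (18.9% of all). The 2 that passed were single probe sets of mRpL11 and mRpL12, and that of mRpL12 passed the filter only through its yw values, so that its call counts for nothing beyond them. For each gene the other probe set did not pass.

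Probe set 142024_at of mRpL11 read 629.6 and 540.2 in mock and irradiated yw embryos. In w1118 it read 82.5 and 102.9 in mock and 73.7 and 63.7 in irradiated embryos, and in Dmp53NS 70.7, 73.3, 82.8 and 72.5. The yw arrays stood far above the other 8, by 2.67 on the log2 scale against w1118 (SE 0.33, adjusted p = 0.00228). Probe set 149898_at of the same gene read 376.9 and 462.2 in yw and 462.7, 595.4, 513.5 and 538.2 in w1118. Here the yw arrays were the lowest, with a difference of -0.32 (SE 0.28, adjusted p = 0.511).

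Probe set 141924_at of mRpL12 read 383.2 and 337.8 in yw. In w1118 it read 20.7 and 83.7 in mock and 13.7 and 37.4 in irradiated embryos, and in Dmp53NS 22.4, 89.7, 17.2 and 38.8, near the dim end of the arrays. The 8 arrays other than yw averaged 40.5, under the filter of 53.4, so that this probe set was tested only because it read high in yw. Its fitted log2 difference between yw and w1118 was 2.98 (SE 0.61, adjusted p = 0.0234), and it ran from 2.31 with a larger pseudocount to 3.57 without w1118 set 2. It is given as a description. Probe set 142454_at read 964.8 and 1011.4 in yw, within the range of w1118 at 792.4, 1103.9, 803.1 and 1088.0, and differed by 0.08 (SE 0.36, adjusted p = 0.915). Without the 2 arrays of high 3′ to 5′ ratio the first probe sets of both genes kept their size (2.59 and 2.95) but not their call (adjusted p = 0.0766 and 0.150), in a fit that called 11 probe sets in all. Why the probe sets of a gene disagree was not tested.

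**Figure D5:**
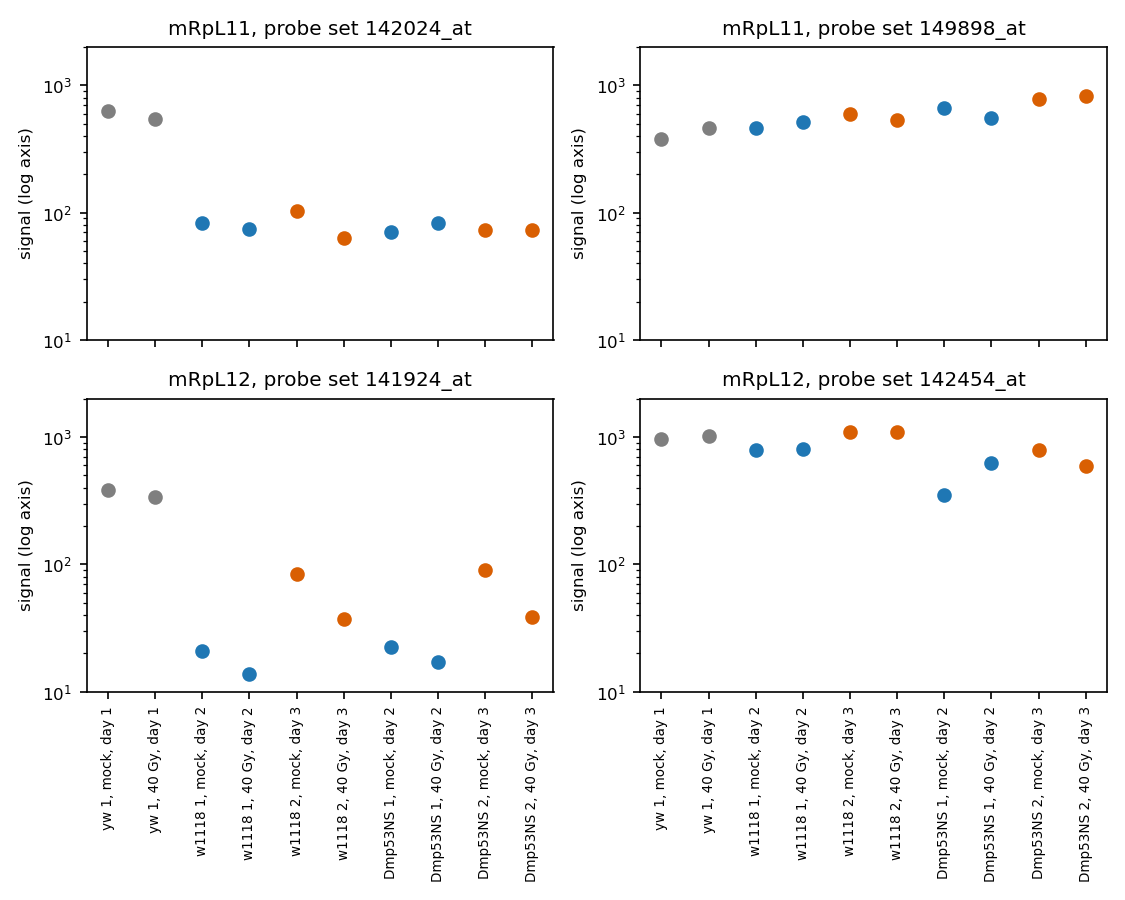
Signal on a log axis of the 2 probe sets of mRpL11 and of mRpL12 on each array, coloured grey, blue and orange by hybridization days 1, 2 and 3. The left panels show the yw arrays at 337.8 to 629.6 and the other 8 at 13.7 to 102.9; the right panels show no such gap.

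Outside these genes the largest differences between the strains were negative. mRpL14, a protein at the face between the subunits, read 294.5 and 300.2 in yw and 724.8, 1026.4, 633.9 and 1032.9 in w1118. The yw arrays were lower than all of these, by -1.45 (SE 0.40, adjusted p = 0.0567). mRpS18B (-1.26), mRpL33 (-1.20) and mRpL39 (-0.87) followed, and on the positive side mRpL55 (0.90) and mRpS18C (0.71). None of these passed. For the cytosolic ribosome, 8 of 33 probe sets passed as higher in yw, with a median of 0.71. The summed signal of 9 genes of adult ovary and yolk, 4 of them kept, was 1393 and 1068 on the yw arrays and 407 to 657 elsewhere. All 4 kept had higher fitted values in yw, and 0 passed in limma. They differed among themselves. Cp18 read 338.7 and 400.7 in yw and 133.6 to 214.4 elsewhere. Yp2 read 288.3 in mock but 49.4 in irradiated yw embryos, against 33.4 to 122.3 in w1118. The part of ovary and yolk genes in the strain differences was not tested.

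Other genes of mitochondrial gene expression had few calls. Of 8 mitochondrial translation factors, 7 mitochondrial tRNA synthetases, 11 genes of mitochondrial DNA upkeep and transcription, 7 mitochondrial chaperones and proteases and 6 regulators of growth and mitochondrial biogenesis that were kept, 0 passed in limma for irradiation of either genotype or for their difference, with 3 of these 39 at an unadjusted p under 0.05 in WT embryos (8.09% of all probe sets kept) and 0 in the other 2 tests. Between Dmp53NS and w1118 they had 0 calls in limma, with 8 at an unadjusted p under 0.05 in mock (17.4% of all) and 9 in irradiated embryos (16.5% of all). Between yw and w1118, ProRS-m, which charges the mitochondrial tRNA of proline, passed at -2.16 (SE 0.49, adjusted p = 0.0324). tko and bonsai, which encode small-subunit proteins of the mitochondrial ribosome under other names, had 0 calls, with irradiation differences in WT embryos of 0.01 and 0.21.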

How the data were processed

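Total RNA of 10 whole-embryo samples was read on single-colour Affymetrix DrosGenome1 arrays. The authors deposited 1 signal intensity for each probe set, computed with MAS5 per the submitters' processing notes. A genome build for the probe sets is not given in the sources used here, and no detection calls were used. The deposited intensity has a mean, trimmed by 2% at each end, of 250.04 on every array over 14010 probe sets. The 44 Affymetrix controls were left out, and each array was then scaled so that this trimmed mean of the other probe sets was equal on all arrays. No array depth exists as for reads, and the number of arrays limits the precision.

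Symbols came from the platform annotation; all 64 matched the RefSeq Release 6 gene table. A probe set with several symbols, 1 of them with an mRp name, was not used. Values were analysed as log2(signal + 14.6), the added number being the 20th percentile, which shrinks the differences of dim probe sets. The filter kept those whose signal averaged more than 53.4 (the 40th percentile).

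Groups and sets came from the sample labels. Irradiation effects and their difference were fitted with limma 3.58.1 in R 4.3.3 (lmFit, eBayes with a trend) to all 10 arrays with each set as a fixed block, leaving 3 residual and 18.1 prior degrees of freedom. For the strain differences the model held strain, irradiation and a random effect of set, whose consensus correlation was 0.20. It had 5 residual and 5.71 prior degrees of freedom. Two-sided p-values were adjusted by Benjamini-Hochberg across all 8379 probe sets that passed the filter, with a threshold of 0.05. The scripts were tested on simulated data.

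The pairing of control and irradiated arrays comes from the series' design. Deviations from group means correlated within sets at 0.639 (yw), 0.652 and 0.584 (w1118) and 0.428 (Dmp53NS, the same in both sets by construction). The WT means here pool yw, with 1 array per group, and w1118. The WT correlations therefore also hold the difference between these strains and their days. The run records tie replicate numbers of w1118 and Dmp53NS to shared hybridization days, and same-numbered arrays of these strains correlated at 0.585 (mock) and 0.563 (irradiated). Each strain has 2 sets there, so that both numbers give the same value. The p-values measure the spread between these samples only.

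Genes named are the members past the threshold, members with a known structural role, and list members past the threshold. The 4 highest and 4 lowest are also named for irradiation of each genotype and for yw minus w1118. In the other comparisons only some of the highest and lowest are named. The examples for the days and the labelled points of the plot by day were picked after their values were seen. mRpS5 is not among the members. The members and gene lists were chosen with earlier results of these data known. Alternatives covered scaling, pseudocount, filter, variance trend, block, reference strain and leaving out sets or arrays.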

Additional observations from a re-analysis of the deposited data

Results flagged for a closer look

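For 4 members every WT set went one way after irradiation and both Dmp53NS sets the other. mRpL3 was lower in the 3 WT sets and higher in both Dmp53NS sets, with a WT minus Dmp53NS difference in irradiation effect of -2.21 on the log2 scale. mRpL22 did the same, with -0.57. mRpL33, with 1.03, and mRpL24, with 0.29, were higher in the 3 WT sets and lower in both Dmp53NS sets. The difference itself was tested in limma and passed for none of the 4 (the lowest adjusted p was 0.432, for mRpL3). Of all probe sets kept, 3.25% showed the pattern of mRpL3 and mRpL22, and 2.4% that of mRpL33 and mRpL24.

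For mRpL3 the irradiated arrays of w1118 and Dmp53NS lie close together, at 171.6, 179.9, 195.6 and 206.8. The low values are the 2 Dmp53NS controls, at 33.4 and 109.9, and the irradiated yw array, at 58.8. The cause was not tested.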

How the results depend on the processing

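Counts of members past 0.05 stayed within 1.5 times of the reported ones in 84 of 94 recomputations, and medians stayed within 1 SD between sets in 78 of 86. Most reported counts were 0, and 0 against 0 entered as within the bound. For Dmp53NS irradiation the SD came from 2 sets, and leaving 1 of them out could hardly move the median past it. These tallies were thus fixed in part in advance and say little about stability. No call of a single member changed sign. With sets left out in turn, the counts were 0 to 0 in every comparison but yw minus w1118, at 2 to 3. The medians were 0.01 to 0.07 (WT irradiation), -0.16 to 0.27 (Dmp53NS irradiation), -0.26 to 0.19 (their difference), -0.54 to 0.27 and -0.40 to 0.12 (Dmp53NS minus w1118, mock and irradiated), and -0.15 to 0.29 (yw minus w1118). For Dmp53NS minus w1118 the replicate block used w1118 and Dmp53NS arrays only, with no effect of set. It gave 6 members in mock (14.5% of all) and 2 in irradiated embryos (12.5% of all). Without the block, the same arrays gave 0 and 0 (0.406% and 0.346% of all). The mean of yw and w1118 as reference gave 4 in mock, a count not set against all probe sets here. Among the 6 comparisons of strain, genotype and irradiation, fits with no replicate block or a random one changed no other count past that bound. Without the 2 arrays of high 3′ to 5′ ratio, a choice made after seeing the data, the mock median was -0.39, and yw minus w1118 had 0 members in limma (4 at an unadjusted p under 0.05). A filter at the 60th percentile left 1 member there. mRpL14 passed there with no filter (adjusted p = 0.0339), with no replicate block (0.0354), without w1118 set 1 (0.0382) and without Dmp53NS set 1 (0.0466). For day 3 minus day 2, also added after seeing the data, the count of 25 was 11 with no variance trend, 2 with w1118 arrays only, 1 with Dmp53NS arrays only and 5 without the 2 arrays. It was 44 with set as a random block, where the consensus correlation came out at -0.51. Of the 8379 kept, those called higher were 615 in the main fit, 325 with no variance trend and 1532 with the random block. The causes of these changes in the counts were not tested. The fits that leave arrays out also hold fewer of them. In the main fits, the 2 to 4 arrays on each side of a comparison limit what could be detected.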
